A study of Mus musculus with 4 samples.

Results

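Contractile genes encode the actin, myosin, tropomyosin and calponin proteins with which smooth muscle cells and myofibroblasts pull on their surroundings, and 10 of them are described here in mouse pancreatic tumours. They were chosen by name (Acta2, Tagln, Myl9, Cnn1, Tpm1, Tpm2, Actg2, Lrrc15, Des and Myh11), and all 10 were found among the 32285 genes of the count matrices. Myofibroblasts are fibroblasts that build stress fibres holding smooth muscle actin. In pancreatic tumours such cells are known as one state of the cancer-associated fibroblast, beside inflammatory and universal fibroblasts. Mural cells, the pericytes and smooth muscle cells of vessel walls, carry many of the same proteins, so that desmin (Des) and smooth muscle myosin heavy chain (Myh11) were read as markers of them. Lrrc15 encodes a leucine-rich repeat membrane protein known as a marker of TGF-beta-driven myofibroblasts.

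Untreated C57BL/6J mice carried orthotopic pancreatic tumours made from 2 lines of KPC pancreatic cancer cells, KPC-4545 (replicate 1) and KPC-3403 (replicate 2), and were taken on day 13. From each line there was 1 library of the whole dissociated tumour and 1 of cells sorted as lacking CD45, CD31, EPCAM and TER119, called enriched, which makes 4 droplet libraries in all. The labels do not say whether the 2 preparations of a line came from the same animal, and there was no second library of any kind, so a difference between 2 libraries has no replicate check. Intervals given here cover counting error only (95%, exact Poisson for levels, exact Clopper-Pearson for shares).

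The libraries held 5746733 to 51450719 UMIs, and 5599 cells were analysed. Of these, 658 were fibroblast-like, defined as clusters with a high Col1a1 level, 202 mesothelial-like, 2038 tumour-like and 1062 immune-like. A further 952 formed a stroma positive for Dcn and Wt1 with less Col1a1. The tumour-like class was named by keratins alone. It includes cluster 17 (111 cells), led by Prap1, Lypd8 and Reg3g, which gave 86 of the 173 tumour-like cells of whole KPC-3403. Whether those are tumour cells was not tested. The fibroblast-like cells numbered 51 in enriched KPC-4545, 3 in whole KPC-4545, 560 in enriched KPC-3403 and 44 in whole KPC-3403. Of the mesothelial-like cells, 189 came from enriched KPC-3403. The enriched KPC-4545 library went against its label: 1157 of its 1508 cells were tumour-like. That library also shared 131 called barcodes with whole KPC-3403, against 6 or 8 in every other pair of libraries, and the copy with fewer UMIs was dropped. The median depth of the fibroblast-like cells was 6715 UMIs in enriched KPC-4545, 12991 in enriched KPC-3403 and 13582 in whole KPC-3403. All 9 fibroblast markers were detected in each of these 3 libraries, summing to 283 to 374 UMIs per 10000, while every list of markers of another cell type summed to 2.61 or less there. Col1a1 and Dcn, by which the class was named, are among the 9. Clusters with high immune or endothelial sums had been classed apart. The fibroblast, immune and endothelial sums are thus in part set by the naming. The 12 tumour or epithelial markers summed to 0.247 to 1.81, with Epcam at 0 in 2 of the 3, and the 9 mesothelial markers to 0.988 to 1.62, with Muc16 at 0 in each. The 8 endothelial markers summed to 0.299 to 0.692, with Cdh5 and Emcn at 0 in each. Whole KPC-4545, with 3 fibroblast-like cells, gives no level for that class here.

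All 10 genes are protein-coding. In mm10 with GENCODE vM21, Acta2 lies at chr19:34241090-34255590 (-), Tagln at chr9:45929619-45936058 (-), Myl9 at chr2:156775420-156781658 (+) and Cnn1 at chr9:22099216-22109630 (+). Tpm1 lies at chr9:67022590-67049406 (-), Tpm2 at chr4:43514711-43523765 (-) and Actg2 at chr6:83512905-83536265 (-). Lrrc15 lies at chr16:30269302-30283256 (-), Des at chr1:75360329-75368579 (+) and Myh11 at chr16:14194535-14291372 (-).

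Contractile genes are the textbook targets of serum response factor, which binds a DNA motif called the CArG box. RefSeq (GRCm38.p6) gave the 250 bases before the start of 7 of the 10 genes, and these were searched for the box on both strands, with at most 1 mismatch. Such a match stood before Acta2, Myl9 and Tpm1 (3 of 7 genes), while 18.6% of 32851 promoters of the same length held one. An exact box was found before Myl9 (1 of 7), against 1.47% of all promoters. Des, Tpm2, Cnn1 and Lrrc15 had no match, and no sequence was at hand for Tagln, Actg2 and Myh11. The matches are shown with 10 bases on each side, 5′ to 3′ on the gene's strand, with the box in capitals.
Acta2, 84 bases before the start, 1 mismatch, chr19:34255438-34255467 (-): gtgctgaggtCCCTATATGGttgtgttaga
Acta2, 34 bases before the start, 1 mismatch, chr19:34255388-34255417 (-): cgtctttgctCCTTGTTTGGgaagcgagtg
Myl9, 161 bases before the start, exact, chr2:156775293-156775322 (+): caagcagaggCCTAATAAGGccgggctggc
Myl9, 99 bases before the start, 1 mismatch, chr2:156775355-156775384 (+): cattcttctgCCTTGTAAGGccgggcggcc
Tpm1, 221 bases before the start, 1 mismatch, chr9:67049415-67049444 (-): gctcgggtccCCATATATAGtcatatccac
Tpm1, 80 bases before the start, 1 mismatch, chr9:67049274-67049303 (-): acaagcttttCCAAAAAAGTattggctgtc
Both Acta2 boxes and the Tpm1 box nearer the start overlap an exon of a GENCODE transcript of the same gene. A match is a string of letters, and binding was not measured.

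For Acta2 and Tagln in enriched KPC-3403, fibroblast-like cells were highest, followed by the Wt1-positive stroma, mesothelial-like cells and tumour-like cells. Acta2 encodes the smooth muscle actin of stress fibres. Its level in fibroblast-like cells was 11.8 UMIs per 10000 (10.8 to 12.8) in enriched KPC-4545, 10.4 (10.2 to 10.6) in enriched KPC-3403 and 4.80 (4.31 to 5.34) in whole KPC-3403. In tumour-like cells it was 0.040 in enriched KPC-4545, 0.0463 in whole KPC-4545, 0.277 in enriched KPC-3403 and 0.0211 in whole KPC-3403. Every fibroblast-like library was above every tumour-like one, and the Dcn-positive Wt1-positive stroma (2.35, 2.27 to 2.42) and mesothelial-like cells (1.94, 1.81 to 2.08) of enriched KPC-3403 lay between them. Tagln encodes transgelin, an actin-binding protein of smooth muscle. Its fibroblast-like levels were 12.4, 10.7 and 12.2 in the same order of libraries, its level in the Wt1-positive stroma was 1.48 and in mesothelial-like cells 0.764, and the 4 tumour-like levels were 0.00543, 0 (0 UMIs in 33 cells), 0.0385 and 0.00604. In enriched KPC-4545, 1 cell held 277 of the 573 Acta2 UMIs and 282 of the 604 Tagln UMIs, so those 2 levels rest largely on it. The mesothelial-like Tagln level also rests largely on 1 cell, which held 180 of the 327 UMIs, and 23 of 189 cells had any.

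Myl9, the regulatory light chain of smooth muscle myosin, and Cnn1, the smooth muscle calponin, were also highest in fibroblast-like cells. Myl9 stood at 1.65, 1.24 and 1.02 UMIs per 10000 in the 3 fibroblast-like libraries, at 0.205 in the Wt1-positive stroma and at 0.0607 in mesothelial-like cells. Its tumour-like levels were 0.117 in enriched KPC-4545, 0.0463 in whole KPC-4545, 0.0238 in enriched KPC-3403 and 0.00302 in whole KPC-3403, the first of them above the mesothelial-like level. Cnn1 stood at 0.185, 0.253 and 0.184 in fibroblast-like cells, and all 2038 tumour-like cells together gave 1 Cnn1 UMI. In mesothelial-like cells Cnn1 had 5 UMIs in 189 cells.

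**Figure D1:**
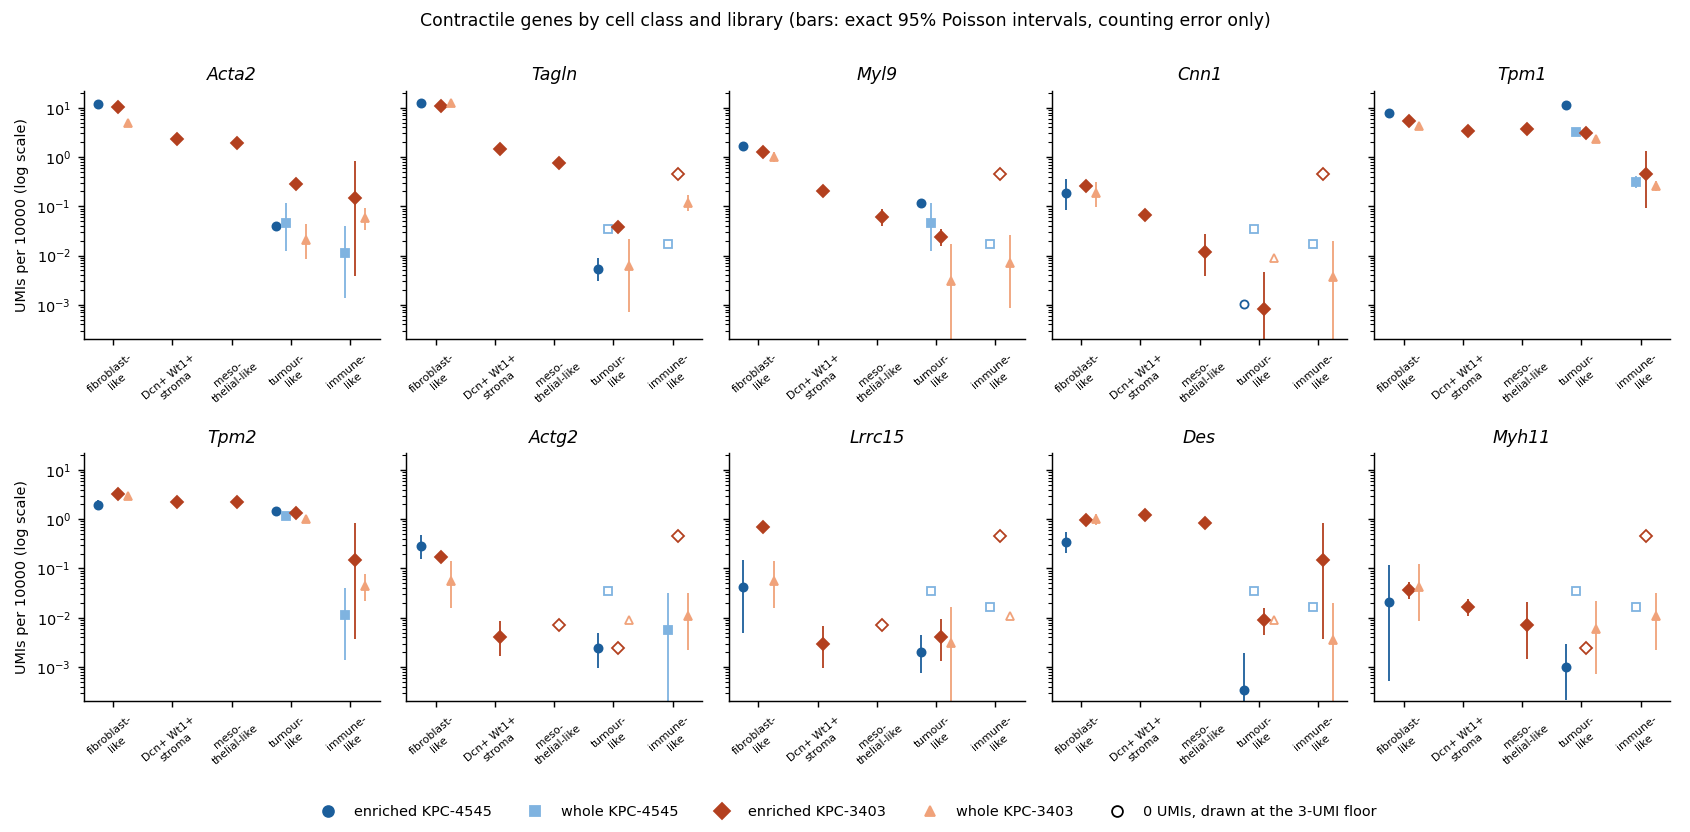
Level of each gene (UMIs per 10000, log scale) in 5 cell classes, 1 point per library with at least 20 cells of the class, with exact 95% Poisson intervals; an open point is a library with 0 UMIs, drawn at the level of 3 UMIs. Acta2 and Tagln are highest in fibroblast-like cells, while the Tpm1 level of enriched KPC-4545 tumour-like cells, 11.5, exceeds each fibroblast-like level.

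The tropomyosins Tpm1 and Tpm2, which lie along the actin filament, were less restricted. Tpm1 had levels of 7.72, 5.34 and 4.25 UMIs per 10000 in the fibroblast-like cells, 3.42 in the Wt1-positive stroma and 3.72 in mesothelial-like cells. Its tumour-like levels were 11.5 in enriched KPC-4545, 3.22 (2.85 to 3.62) in whole KPC-4545, 3.0 (2.90 to 3.10) in enriched KPC-3403 and 2.36 (2.20 to 2.54) in whole KPC-3403. The enriched KPC-4545 tumour-like cells thus exceeded each fibroblast-like level. Tpm2 stood at 1.98, 3.19 and 3.01 in fibroblast-like cells, 2.21 and 2.25 in the Wt1-positive stroma and mesothelial-like cells, and 1.02 to 1.45 in the tumour-like cells of the 4 libraries. The counts do not separate the isoforms of either gene.

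Actg2, the enteric smooth muscle actin, was rare, and the Lrrc15 level differed between libraries. Actg2 had 14 UMIs in enriched KPC-4545, all in 1 cell, 137 UMIs in 27 of 560 fibroblast-like cells of enriched KPC-3403 (0.173 per 10000, 0.145 to 0.205) and 4 UMIs in whole KPC-3403. Tumour-like cells gave 7 Actg2 UMIs, all in enriched KPC-4545. The actin genes are close to each other in sequence, and how reads shared between them were counted is not given in the sources used here, so the Actg2 values are uncertain. The skeletal and cardiac actins Acta1 and Actc1 had 10 and 0 UMIs in the 560 cells. Lrrc15 stood at 0.696 (0.639 to 0.757) in enriched KPC-3403 fibroblast-like cells, with 551 UMIs in 117 cells, but at 0.0412 (0.00498 to 0.149) in enriched KPC-4545 and 0.0565 (0.0154 to 0.145) in whole KPC-3403, from 2 and 4 UMIs. The intervals of the last 2 libraries overlap each other and lie below that of the first. In mesothelial-like cells of enriched KPC-3403 neither Actg2 nor Lrrc15 had a UMI (0.00701 per 10000 is the level of 3 UMIs there).

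Des, the intermediate filament of muscle, and Myh11 completed the list. Des was not restricted to fibroblast-like cells: its levels there were 0.350 (0.204 to 0.560), 0.951 (0.885 to 1.02) and 0.989 (0.771 to 1.25), and the Wt1-positive stroma was higher, at 1.21 (1.16 to 1.27). Mesothelial-like cells had 0.853 (0.767 to 0.945). Tumour-like cells had 1, 0, 11 and 0 Des UMIs in the 4 libraries. Myh11 had 1, 29 and 3 UMIs in the 3 fibroblast-like libraries and 0.00701 to 0.0166 per 10000 in the other stromal classes of enriched KPC-3403.

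Fibroblast-like and tumour-like cells were compared by summing UMIs per class within each of the 3 libraries that held at least 20 cells of both, and fitting these 6 sums with the library as a block (edgeR quasi-likelihood test, Benjamini-Hochberg adjusted over 12955 genes, 2 residual degrees of freedom). Of the 10 members, 9 were higher in fibroblast-like cells and 0 were lower, and the genome-wide shares were 13.7% higher and 10.1% lower. The median log2 difference of the members was 6.69, against -0.03 over all genes tested. The standard errors given are approximate, from the ratio of the difference to the square root of F. Among the members Tagln had the largest fitted log2 difference, 9.97 (SE 0.84, adjusted p = 0.00142), and Acta2 differed by 7.15 (SE 0.76, adjusted p = 0.00292). Cnn1 (9.16, adjusted p = 3.9e-04), Des (8.0, 9.3e-04), Actg2 (7.52, 0.00104), Lrrc15 (6.22, 0.00330), Myl9 (5.41, 0.0125) and Myh11 (4.63, 0.0337) also passed. For Cnn1, Actg2, Des and Myh11, at least 1 of the 3 tumour-like sums was 0, and the fitted size then depends on the prior count. In enriched KPC-3403, the Cnn1 ratio from 200 against 1 UMIs was 8.27 on the log2 scale, with a counting interval of 5.77 to 13.58. Fibroblast-like against tumour-like Myh11 UMIs were 1 and 3 in enriched KPC-4545, 29 and 0 in enriched KPC-3403 and 3 and 2 in whole KPC-3403. The log2 counting intervals of the first and last of these, -1.38 to 7.98 and -0.31 to 6.39, include 0.

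**Figure D2:**
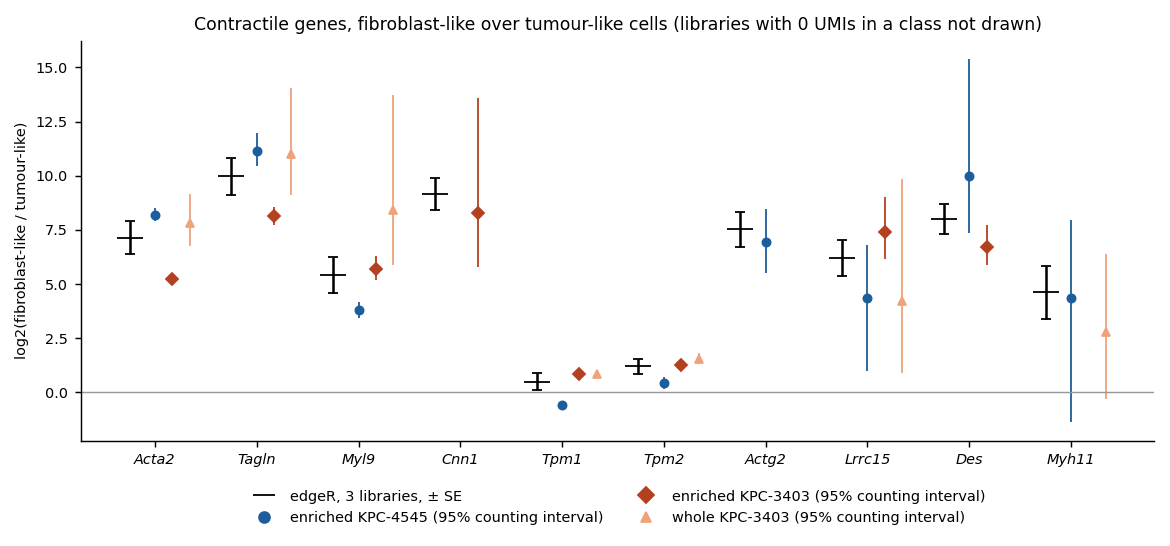
log2 ratio of fibroblast-like over tumour-like cells for each gene: the edgeR fit over 3 libraries with its standard error (black), and each library's own ratio with its 95% counting interval (coloured; libraries with 0 UMIs in a class are not drawn). Tpm1 is below 0 in enriched KPC-4545 (-0.57) and above 0 in both KPC-3403 libraries (0.83 and 0.85).

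Tpm2 was higher in fibroblast-like cells by 1.21 (SE 0.34, adjusted p = 0.0411), and this call was lost in 6 of 16 alternative settings; without enriched replicate 2 its adjusted p was 0.240 and without whole replicate 2 it was 0.221. Tpm1 did not pass (0.49, SE 0.39, adjusted p = 0.398), with ratios of -0.57 (-0.72 to -0.42) in enriched KPC-4545, 0.83 (0.77 to 0.90) in enriched KPC-3403 and 0.85 (0.65 to 1.04) in whole KPC-3403. Without the enriched KPC-4545 library, which held mainly tumour-like cells, Tpm1 passed (0.95, adjusted p = 0.0131) and 10 of 10 members were higher, beside 19.0% of all genes tested. Without enriched replicate 2, the deepest library, 5 of 8 members tested were higher, beside 5.88% of all genes, and Myl9 did not pass (5.23, adjusted p = 0.141). With 2 libraries left, that fit has a single residual degree of freedom.

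Beyond the members, the wider contractile apparatus had a smaller median difference. Of 24 partner genes (non-muscle actins and myosins, crosslinkers and adhesion proteins), 8 were higher in fibroblast-like cells, 0 were lower and 16 did not pass, with a median log2 difference of 0.59, against -0.03 over all genes. Caldesmon (Cald1, 2.10, adjusted p = 0.0125), palladin (Palld, 3.29, 0.0452), Tpm4 (1.06, 0.0367) and Csrp1 (0.97, 0.0402) were among the 8. Of 12 smooth muscle genes, 7 could be tested and 5 were higher: the members Cnn1, Actg2 and Myh11, smoothelin (Smtn, 2.03, adjusted p = 0.00651) and Synpo2 (4.28, 0.0140). Myocardin (Myocd), a smooth muscle cofactor of serum response factor, had 0 UMIs in the fibroblast-like cells of enriched KPC-3403. The matrix, universal and inflammatory, and cycling genes named next had stayed in the clustering that made the classes. Their calls and p-values are thus not independent of it. Matrix genes known from myofibroblasts were higher in 7 of 12, with a median of 4.5, among them fibronectin (Fn1, 1.92, adjusted p = 0.0146), periostin (Postn, 10.67, 1.6e-04), Cthrc1 (5.10, 0.0106) and tenascin C (Tnc, 6.99, 0.00339). Universal and inflammatory fibroblast genes were higher in 9 of 11 (median 6.99), such as C3 (6.53, adjusted p = 0.0244) and Clec3b (11.44, 2.2e-04). Of 18 cycling genes 11 were lower in fibroblast-like cells, Ube2c by -3.05 (adjusted p = 0.0136), and in the order of libraries above 25.5%, 7.14% and 6.82% of fibroblast-like cells but 39.7%, 19.0% and 38.2% of tumour-like cells were cycling.

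Within the fibroblast-like cells the contractile genes were concentrated in 1 of 2 clusters, although the members and their partners had been kept out of the clustering. Cluster 7, with 218 cells in enriched KPC-3403, was led by Tagln, Acta2, Tnc and Sfrp1. Cluster 3, with 342 cells there, was led by Sfrp4, Dpt, Clec3b, Postn and Pi16. Dpt, Clec3b and Pi16 belong to the list of universal and inflammatory fibroblast genes, and Postn to that of myofibroblast matrix genes. As both come from one clustering of these cells, their values are a description without a test. Acta2 stood at 20.1 UMIs per 10000 (19.7 to 20.6) in cluster 7 and 2.24 (2.10 to 2.39) in cluster 3, and Tagln at 21.7 and 1.56. The collagen Col1a1 differed far less between them, at 103 (102 to 104) and 105 (104 to 106). Cnn1 had 199 UMIs in cluster 7 and 1 in cluster 3, and Myh11 had 29 and 0. Des stood at 1.95 (1.80 to 2.10) and 0.116 (0.0863 to 0.153), and Actg2 at 0.343 and 0.0302. The tropomyosins and the light chain differed less: Tpm1 at 7.84 and 3.24, Tpm2 at 4.97 and 1.69, and Myl9 at 1.93 and 0.660.

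Lrrc15 had the opposite order, with 1.09 (0.994 to 1.19) in cluster 3 and 0.227 (0.181 to 0.282) in cluster 7, so 469 of its 551 UMIs lay in the cluster with few contractile UMIs. The smaller libraries kept this order for some members only. In whole KPC-3403 (22 cells each), Acta2 stood at 5.37 (4.67 to 6.15) in cluster 7 and 4.10 (3.43 to 4.87) in cluster 3, where 1 cell held 122 of 130 UMIs, and Tagln at 15.4 and 8.36. There Tpm1 had the opposite order, at 3.89 (3.30 to 4.56) and 4.70 (3.98 to 5.52) with overlapping intervals, and Myh11 had 0 and 3 UMIs. Lrrc15 had 2 UMIs in each of these clusters, and in enriched KPC-4545 it had 2 in cluster 7 and 0 in cluster 3. In enriched KPC-4545 (20 and 31 cells), Acta2 stood at 37.5 and 1.33 and Tagln at 36.1 and 2.81, and here Col1a1 also differed, at 234 and 61.9. The cell that holds 277 Acta2 UMIs is 1 of the 20. The median mitochondrial share of those 20 cells was 8.68%, against 2.01% in the 218 cells of enriched KPC-3403; its part in the higher level was not tested.

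**Figure D3:**
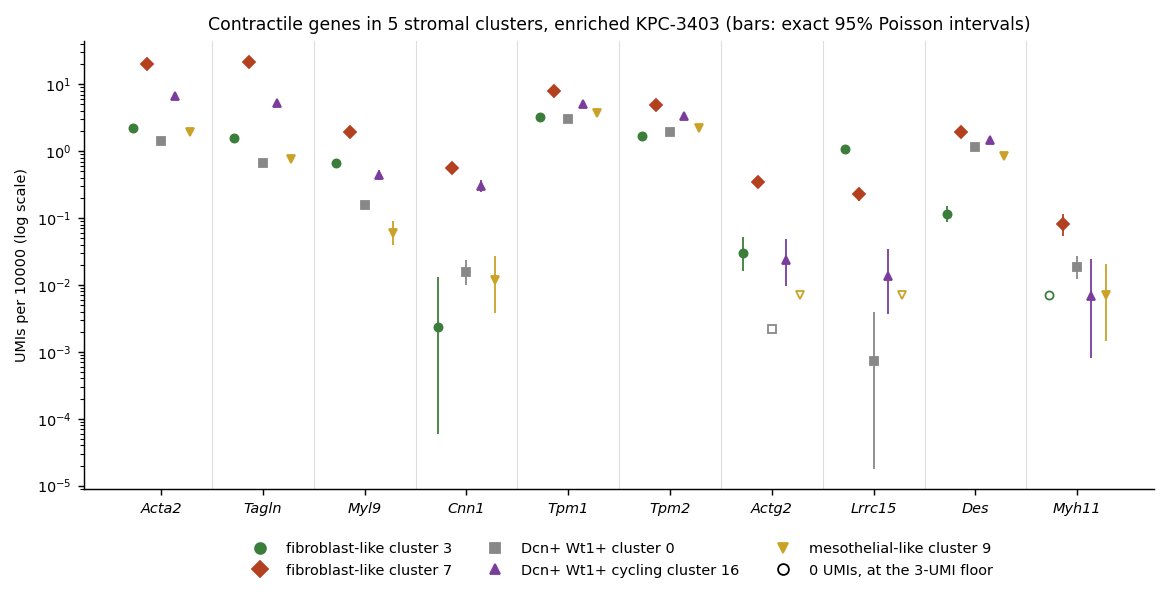
Level of each gene (UMIs per 10000, log scale) in 5 stromal clusters of the enriched KPC-3403 library, with exact 95% Poisson intervals; open points are clusters with 0 UMIs, drawn at the level of 3 UMIs. Cluster 7 is highest for every gene shown except Lrrc15, which is highest in cluster 3.

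Outside the fibroblast-like cells, the cycling cluster of the Wt1-positive stroma (cluster 16, 115 cells) was the next highest, with Acta2 at 6.70 (6.41 to 7.01), Tagln at 5.26 (5.00 to 5.53), Cnn1 at 0.302 (0.242 to 0.371) and Des at 1.46 (1.33 to 1.61). The other cluster of that stroma (cluster 0, 818 cells), led by Cxcl13 and Saa3, had Acta2 at 1.42 (1.36 to 1.48) and Tagln at 0.676 (0.633 to 0.720), with Des still at 1.16. In cluster 16 of enriched KPC-3403, 1 cell held 32 of the 89 Cnn1 UMIs. Over all libraries, the mesothelial markers Upk3b and Upk1b summed to 2.47 in cluster 16, 0.563 in cluster 0 and 9.73 in mesothelial-like cluster 9. Whether cluster 16 includes mesothelial cells was not tested. In tumour-like cells of enriched KPC-3403, 210 of the 338 Acta2 UMIs lay in 43 cells of cluster 1, at 1.91 per 10000 (1.66 to 2.18). Tagln in those 43 cells was at 0.0545 (6 UMIs), and Col1a1 was at 3.02. Most of cluster 1 came from the other line, with 508 of its 565 cells in enriched KPC-4545. In tumour-like clusters 2 and 8, with 404 and 202 cells in enriched KPC-3403, Acta2 stood at 0.0715 and 0.0793 there.

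Within the fibroblast-like class the Acta2 UMIs were spread unevenly over cells. In enriched KPC-3403, 296 of 560 cells (52.9%) had no Acta2 UMI, 109 had at least 10 per 10000 and 22 had at least 50, with a highest value of 104. The tenth of cells with the most Acta2 UMIs held 72.3% of them. This was much the same in the Wt1-positive stroma (74.6%) and mesothelial-like cells (71.0%) of that library. No Acta2 UMI was found in 49.6% and 46.0% of their cells, at median depths of 17646 and 21664 UMIs against 12991. For Tagln, 326 cells (58.2%) had none, 114 had at least 10 and the highest value was 159. In the Wt1-positive stroma 40 of 933 cells and in the mesothelial-like class 6 of 189 had at least 10 Acta2 UMIs per 10000.

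Co-detection was counted after each cell was thinned to 1000 UMIs, which left out 9 of the 560 cells. In fibroblast-like cells of enriched KPC-3403, 137 of 551 cells had Acta2, 135 had Tagln and 91 had both, a share of 16.5% (13.5 to 19.9). Independent detection would give 33.6 cells, so the pair was seen together 2.71 times as often. Tagln was found in 66.4% of cells with Acta2 and in 10.6% of the rest. The share depends on the settings: 33.8% of the 560 cells had both unthinned, 8.89% of thinned cells had at least 2 UMIs of each, and it was 8.77% at a coarser clustering. In enriched KPC-4545 the pair was in 5 of 46 cells (10.9%, 3.62 to 23.6), and in whole KPC-3403 in 5 of 44 (11.4%, 3.79 to 24.6), intervals that overlap that of enriched KPC-3403.

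Other classes held few such cells. The pair was found in 26 of 921 cells of the Wt1-positive stroma (2.82%, 1.85 to 4.11), of which 14 were among the 114 cycling cells of cluster 16. In mesothelial-like cells it was found in 3 of 188 (1.60%, 0.330 to 4.59), with Acta2 alone or paired in 18. In tumour-like cells it was found in 0 of 1150, 0 of 32, 0 of 661 and 0 of 168 cells of the 4 libraries; the first of these allows a share of up to 0.261% (3 cells of the total). As a measure of free RNA, immune-like cells, which should lack the gene, had Acta2 in 6 of 568 cells (1.06%) of whole KPC-3403 and 0 of 393 of whole KPC-4545 at the same thinned depth (unthinned median depths of 3208 and 3375 UMIs). Free RNA can differ between libraries, and enriched KPC-3403 itself held few such cells, with Acta2 in 0 of 22 immune-like and 0 of 40 erythroid-like thinned cells, which allows up to 13.6% and 7.5%. The tumour-like shares with Acta2 were 0.435% in enriched KPC-4545 and 1.66% (0.834 to 2.96) in enriched KPC-3403, where 8 of the 11 cells were among the 41 thinned cells of cluster 1 (19.5%, 8.82 to 34.9).

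**Figure D4:**
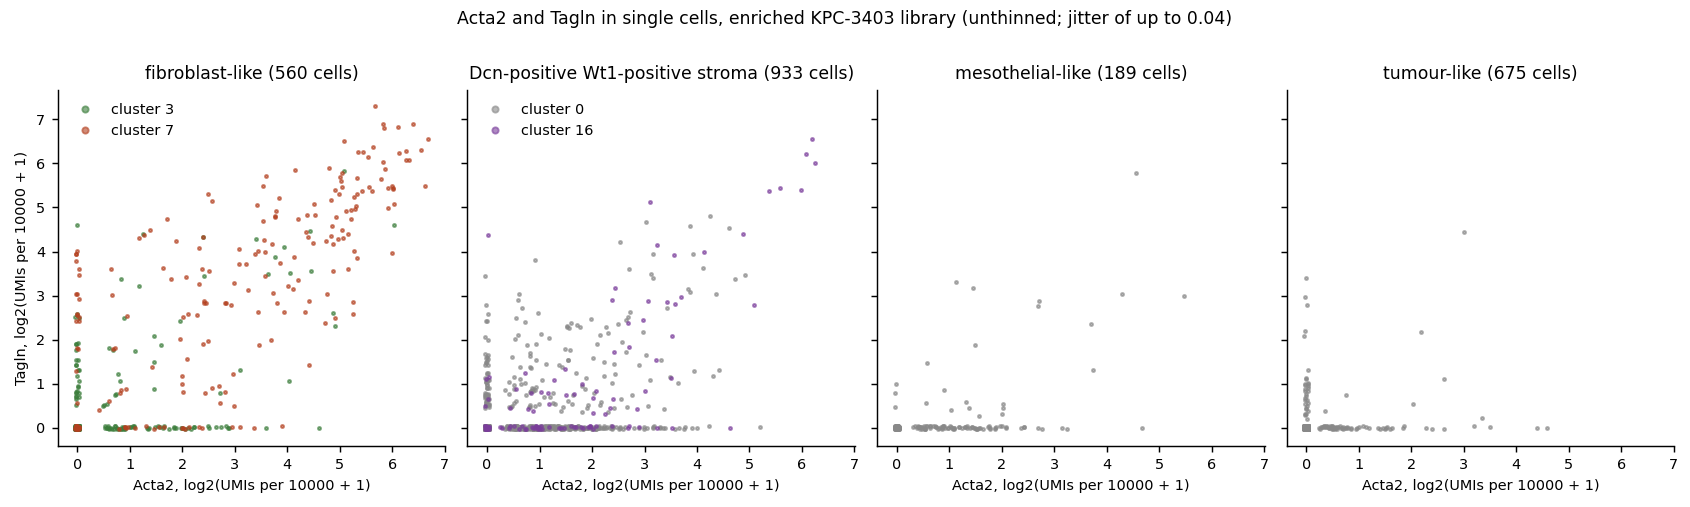
Acta2 against Tagln in single cells of the enriched KPC-3403 library, as log2(UMIs per 10000 + 1), 1 point per cell in 4 classes, with the 2 clusters of the fibroblast-like cells and of the Wt1-positive stroma in colour. Most cells high for both genes are fibroblast-like cells of cluster 7.

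The other members followed the same cells to different degrees. Against Acta2, the ratio of joint to independent detection in enriched KPC-3403 fibroblast-like cells was 3.66 for Cnn1 (10 cells with both), 2.68 for Myl9 (26 cells), 2.41 for Des (24 cells), 2.37 for Tpm2 (60 cells) and 1.45 for Tpm1 (68 cells). For Lrrc15 it was 1.01 (8 cells against 7.96 expected). Lrrc15 was in 5.84% of cells with Acta2 and 5.80% of cells without. With Tagln the Lrrc15 ratio was 0.510 (4 cells against 7.84 expected), and no cell had both Lrrc15 and Des, against 2.32 expected. Of the 551 cells, 10.2% had 4 or more of the 10 members and 40.5% had none, while 0 of 188 mesothelial-like and 0 of 661 tumour-like cells of that library had 4 or more. In the Wt1-positive stroma 1.85% of 921 cells did, and in its cycling cluster 16 7.02% of 114.

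Across the 560 fibroblast-like cells of enriched KPC-3403, Pearson correlations with Acta2 of log2(UMIs per 10000 + 1) were 0.82 for Tagln, 0.70 for Tpm2, 0.62 for Myl9, 0.60 for Tpm1, 0.51 for Cnn1, 0.45 for Des and 0.02 for Lrrc15. Actg2 and Myh11 were in under 10% of cells and were not ranked. Outside the members, the 5 of 8096 genes most like Acta2 were the calponin Cnn2 (0.70), thymosin beta 4 (Tmsb4x, 0.62), Csrp1 (0.57), Ncam1 (0.56) and Timp1 (0.56). The lowest were Clec3b (-0.55), Tnxb (-0.52) and gelsolin (Gsn, -0.51). These cells share 1 library and differ in depth, so the correlations are a description.

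Des and Myh11 were then read as mural genes. Among thinned fibroblast-like cells of enriched KPC-3403, Des or Myh11 was in 25 of 137 cells with Acta2 (18.2%, 12.2 to 25.7) and in 16 of 414 without (3.86%, 2.22 to 6.20). The first share was 7.25% at a coarser clustering and 49.2% unthinned. Des accounted for 24 of the 25, and Myh11 was in 1. Markers that define pericytes were rare at this thinned depth in both sets of cells. Rgs5, a pericyte signalling regulator, was in 0 of the 137 cells (a count of 0 allows up to 2.19%, or 3 cells of the total), Notch3 was in 1, and any of 8 pericyte markers was in 3 (2.19%, 0.454 to 6.27), against 19 of 414 (4.59%, 2.79 to 7.07). Col1a1 was in 132 of the 137. The Wt1-positive stroma also had Des beside Acta2, in 20 of 117 cells (17.1%, 10.8 to 25.2) against 71 of 804 without Acta2 (8.83%, 6.96 to 11). In enriched KPC-4545 and whole KPC-3403, 0 of 6 and 0 of 9 cells with Acta2 had Des, which allows shares of up to 50% and 33%.

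**Figure D5:**
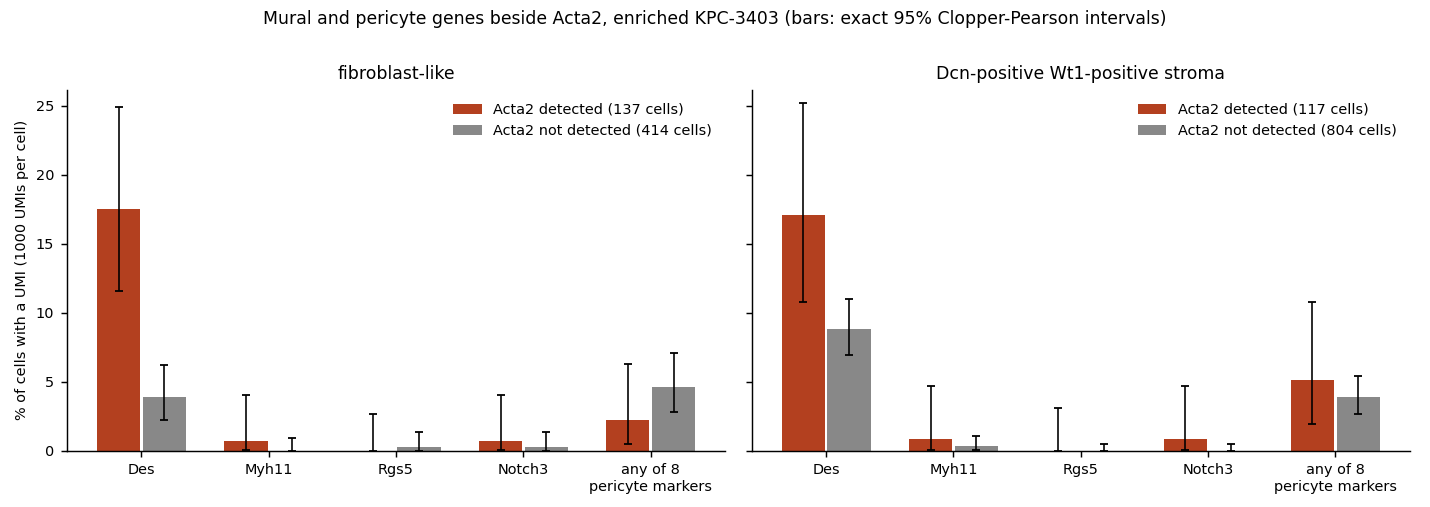
Share of cells with a UMI of Des, Myh11, Rgs5, Notch3 or any of 8 pericyte markers, in cells with and without Acta2 (each cell thinned to 1000 UMIs; enriched KPC-3403), with exact 95% Clopper-Pearson intervals. Des is in 17.5% of fibroblast-like cells with Acta2 and 3.86% of those without, while the share with any of 8 pericyte markers is 2.19% and 4.59%.

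Over all 560 cells, without thinning, Rgs5 had 3 UMIs and Notch3 45, of which 37 lay in cluster 7 and 8 in cluster 3. At least 1 of the 8 pericyte markers was in 89 of 218 cells of cluster 7 and 85 of 342 of cluster 3, with median depths of 16107.5 and 11287 UMIs, and the 8 pericyte markers summed to 0.498 UMIs per 10000 (0.450 to 0.549), beside 0.395 in the Wt1-positive stroma and 0.322 in mesothelial-like cells. The smooth muscle markers Pln and Kcnmb1 had 0 UMIs. A few cells stood apart: 36 of the 560 had under 10 Col1a1 UMIs per 10000, and 12 of these had Des. Cells with Des and this little Col1a1 were more frequent in the Wt1-positive stroma (98 of 933) and among mesothelial-like cells (29 of 189). Both of these classes have less Col1a1 by the way they were named. Over the 36 cells Des stood at 3.42 UMIs per 10000. The 12 cells, picked for having Des, held 80 Des UMIs (10.6% of all Des UMIs of the class), 33 of them in 1 cell, 76 Acta2 UMIs (7.80 per 10000) and 19 of the 45 Notch3 UMIs, but no Rgs5 or Myh11 UMI. In the 12 cells Des stood at 8.21 UMIs per 10000, Notch3 at 1.95 and Wt1 at 0. The 98 cells of the Wt1-positive stroma had 1.79, 0.0104 and 2.59, and the 29 mesothelial-like cells 1.03, 0 and 1.86. The Col1a1 threshold was set after the values had been seen. Without the 36 cells, Des in the class was 0.876 UMIs per 10000, near the 0.951 with them. In the comparison with tumour-like cells, the pericyte list had 5 of 7 tested genes higher, the receptor Pdgfrb, which fibroblasts also carry, by 4.88 (adjusted p = 0.0324) and the channel gene Kcnj8 by 8.61 (4.3e-04). Notch3 did not pass (2.34, adjusted p = 0.244), and Rgs5 was not tested. The pericyte genes had also stayed in the clustering, so these calls are not independent of it.

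The sorted and the whole KPC-3403 tumour differed by gene. On the log2 scale, enriched over whole, Acta2 in fibroblast-like cells was 1.12 (0.96 to 1.28), from 10.4 and 4.80 UMIs per 10000, while Tagln was -0.19 (-0.29 to -0.09), from 10.7 and 12.2. Lrrc15 was 3.62 (2.26 to 5.50) and Actg2 1.61 (0.23 to 3.51), the latter from 137 and 4 UMIs. Tpm1 was 0.33 (0.16 to 0.50), and the intervals of Myl9, Cnn1, Tpm2, Des and Myh11 included 0. Acta2, Actg2 and Lrrc15 passed 2-fold among the 9 members with enough UMIs, and 8.41% of 7584 genes did. The 10 members summed to 33.0 (32.6 to 33.4) and 26.7 (25.5 to 27.9), a log2 difference of 0.31 (0.24 to 0.38), which turned to -0.28 at a coarser clustering and to -0.31 with stricter cell filters. The 2 clusters of the class differed in opposite directions. In cluster 7 the members summed to 59.7 and 31.4 (0.93, 0.84 to 1.01), with Acta2 at 1.91 and Tagln at 0.49 on the log2 scale. In cluster 3 they summed to 10.6 and 20.8 (-0.97, -1.09 to -0.85), with Acta2 at -0.87 and Tagln at -2.42, and in the whole library 1 cell held 122 of its 130 Acta2 UMIs. Cluster 7 held 218 of 560 cells in the sorted library and 22 of 44 in the whole one, a smaller share where the sum was higher. These are 1 library against 1, without a test, and the sort cannot be told apart from any other difference between the 2 preparations.

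Among tumour-like cells, Tpm1 was the 1 member of the 2 abundant enough to compare between lines whose KPC-4545 levels (11.5 and 3.22) both exceeded its KPC-3403 levels (3.0 and 2.36). Of 8146 genes, 32.9% did so, and the intervals of whole KPC-4545 and enriched KPC-3403 overlap. Tpm2 levels overlapped between the lines, at 1.45 and 1.16 against 1.31 and 1.02.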

How the data were processed

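Each of the 4 libraries was read from the matrix of UMI counts per gene and barcode that the authors deposited, unfiltered and not normalized; 5′ chemistry was used, per the labels' protocols. The submitters' processing notes name mm10 and Cell Ranger 6.1.1. How multimapping reads were counted is not given in the sources used here. The members and lists were chosen with earlier results of these data known.

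Cells needed at least 500 UMIs, 250 genes, at most 20% mitochondrial UMIs and a profile unlike free RNA (1000 draws, false discovery rate 0.01, for barcodes up to 5000 UMIs), and doublets were removed by Scrublet score at 0.8% per 1000 cells. Of barcodes called both in enriched KPC-4545 and whole KPC-3403, the copy with fewer UMIs was removed, a choice made after seeing the data, since in 124 of 131 it was the enriched KPC-4545 copy (median 785 against 29550 UMIs). Clustering used scanpy 1.11.5 (2000 variable genes, 30 components, 15 neighbours, Leiden resolution 1) without the members, their partners, the smooth muscle genes, Acta1 and Actc1 (45 genes). Clusters were classed by markers, fibroblast-like at 50 or more Col1a1 UMIs per 10000. Clusters not classed otherwise were tumour-like at 5 or more summed UMIs per 10000 of Krt8, Krt18, Krt19 and Krt7. These cutoffs were set after cluster profiles had been seen. The naming had no pericyte or smooth muscle class, so no cluster could be given either name. The 8 pericyte markers summed to 5.41 UMIs per 10000 in the endothelial-like cluster of 8 cells and to 0.573 in cluster 7. Sequences are from RefSeq.

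Levels are summed UMIs per 10000. Class sums were tested with edgeR 4.0.16 (glmQLFit, TMM, filterByExpr, library as a block, adjusted p under 0.05), tested on simulated data beforehand, with DESeq2 1.42.0 as an alternative. All 10 members are named, and of each list up to 4 genes passing with the highest mean level. Each class in a library is 1 sample, so p-values rest on the spread between these libraries, which may be technical. The fit estimates the spread of each gene in part from other genes.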

Additional observations from a re-analysis of the deposited data

Results flagged for a closer look

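Tpm1 was the member whose difference between fibroblast-like and tumour-like cells went in opposite directions in libraries of the 2 lines. Its log2 ratio was -0.57 in enriched KPC-4545, the only library of that line with a ratio, and 0.83 and 0.85 in the enriched and whole KPC-3403 libraries. The difference was not tested, and with 1 library it is not shown for the line. The tumour-like level was 11.5 UMIs per 10000 in enriched KPC-4545, the library that went against its label, but 3.22 (2.85 to 3.62) in whole KPC-4545, beside 3.0 and 2.36 in KPC-3403. The fibroblast-like levels were 7.72 in enriched KPC-4545 and 5.34 and 4.25 in KPC-3403.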

How the results depend on the processing

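The 10 members summed to 33.0 UMIs per 10000 in enriched KPC-3403 fibroblast-like cells. This was 22.1 at Leiden resolution 0.5, 35.1 at resolution 2, 22.2 with cell minimums of 1000 UMIs and 500 genes, 33.7 with at most 10% mitochondrial UMIs and 36.4 with all genes in the clustering. It was 42.6 with a gate on marker UMIs per cell, 25.2 with cells weighted equally and 33.7 without mitochondrial and haemoglobin genes in the total. Co-detection of Acta2 and Tagln (16.5%) was 8.77% at resolution 0.5, 21.1% with the gate, 20.7% at 2000 UMIs, 33.8% unthinned and 8.89% when at least 2 UMIs were asked for. Des or Myh11 in cells with Acta2 (18.2%) was 7.25% at resolution 0.5 and 49.2% unthinned. The log2 difference of enriched over whole KPC-3403 (0.31) turned to -0.28 at resolution 0.5 and -0.31 at those cell minimums, and was 0.11 with the gate, 0.11 with cells weighted equally and 0.20 without cycling cells. The cause was not tested.

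Of 3 alternatives chosen after seeing the data, keeping both copies of the shared barcodes gave 34.1 for the summed members, 17.3% for co-detection, 18.8% for Des or Myh11 and 0.23 for enriched over whole. It gave 9 members higher, beside 13.9% of all genes. Leaving out cells poor in Col1a1 gave 33.7 for the summed members, 17.6% for co-detection and 17.3% for Des or Myh11. Here 9 members were higher, beside 13.6% of all genes. Leaving out tumour-like clusters with a raised mitochondrial share gave 8 members higher, beside 13.4% of all genes.

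In the comparison with tumour-like cells, no member was lower under any of 16 alternatives, and 9 were higher with DESeq2, beside 15.8% of all genes. With at least 3 cells of a class per library, all 4 libraries entered. There 7 of 9 members tested were higher, beside 15.2% of all genes. Leaving out each library in turn gave 5 (without enriched replicate 2) to 10 (without enriched replicate 1) members higher, 607 to 2347 genes higher over all genes and 234 to 1996 lower, those extremes coming from the same 2 libraries; 735 were lower without whole replicate 2. No library block gave 9 members higher, beside 13.2% of all genes, and 893 genes lower. With the gate per cell, 1 library had enough cells and the test was not run. The comparison of classes is itself paired within libraries by its block. Between enriched and whole tumours, where the replicate number stands for the tumour line, there was 1 pair. No paired analysis was possible because only KPC-3403 had at least 20 fibroblast-like cells in both preparations. Fibroblast-like cells of KPC-4545 (51 in enriched, 3 in whole) and genes of few UMIs (Cnn1, Actg2, Myh11) limit the depth of these results.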
